A study of Mus musculus with 36 samples.

Results

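The 3 libraries of peripheral blood from the 3 mg/kg MIR29B arm at week 4 were compared with the 3 libraries from the 2 mg/kg MIR29B arm at the same week. They were chosen by their titles, and they are 6 of the 36 libraries of the series. The animals were Townes sickle cell mice, a humanised model in which human globin genes stand in place of the mouse ones. Their genotype field reads overexpression of MIR29B, a microRNA that the series title describes as cholesterol-modified and as acting on DNMT3A to induce fetal hemoglobin. The agent was given from a mini-osmotic pump, and globin mRNA was depleted from the RNA before sequencing. The libraries labelled 3 mg/kg and 2 mg/kg scrambled control at week 4, 3 of each, served as background for a difference in dose without the microRNA, and the 3 mg/kg and 2 mg/kg MIR29B libraries of week 0, 3 of each, as the earlier state of the same arms. The mice are of the same strain in all of these groups. The labels do not give their age or sex, whether a library held blood of 1 mouse, or whether blood at week 0 was drawn before dosing. A p-value therefore measures a spread between libraries, not one between animals known to be separate. That spread was estimated over all 36 libraries in 12 groups.

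MicroRNAs of the miR-29 family pair through their seed with sites in the 3' UTR of mRNAs, which are then degraded or translated less. The DNA methyltransferase Dnmt3a, TET enzymes, the survival factor Mcl1 and many collagen genes are known targets. In red cell precursors, DNA methylation and repressors such as Bcl11a keep fetal globin genes silent, and a mouse with human globin genes is used to follow their return.

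The mature sequences below, from RefSeq on GRCm38.p6, show why sites are searched with 1 motif for the whole family: the seed, bases 2 to 8, in capitals, is AGCACCA in all 3 members. miR-29b-3p is encoded at chromosome 1, 195037091 to 195037113 on the plus strand (Mir29b-2), and at chromosome 6, 31063025 to 31063047 on the minus strand (Mir29b-1). The exact sequence and chemistry of the dosed MIR29B are not in the labels.
mmu-miR-29b-3p: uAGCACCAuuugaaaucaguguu
mmu-miR-29a-3p: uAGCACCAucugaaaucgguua
mmu-miR-29c-3p: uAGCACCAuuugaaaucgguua

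The matching 8-mer is TGGTGCTA, the complement of the seed followed by an A, on the transcript strand. It was present in the annotated 3' UTR of 495 of 15105 genes, 3.28%. The windows below, from GENCODE transcripts on GRCm38, hold the site in capitals in the targets whose levels are given first.
Dnmt3a, chromosome 12: ggggaggtagcTGGTGCTAgca
Dnmt3a, chromosome 12: gggtcccaagcTGGTGCTAatt
Tet2, chromosome 3: tcacatcacgaTGGTGCTAccc
Tet2, chromosome 3: ttaacattaaaTGGTGCTAcaa
Tet3, chromosome 6: agtctaataaaTGGTGCTAtgg
Tet3, chromosome 6: ccgcttttagtTGGTGCTAaac
Mcl1, chromosome 3: agtcttaaccaTGGTGCTAttc

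Depth was alike at both doses, with 28.43 to 41.31 M counts per library at 3 mg/kg and 33.41 to 39.38 M at 2 mg/kg. Alas2, which starts heme formation in the red cell lineage, stood at 106000 to 139000 CPM at 3 mg/kg and 111000 to 149000 CPM at 2 mg/kg, where CPM is the count relative to the TMM-scaled library size. The label of the cells is erythrocytes, and markers of white cells and platelets were also counted, at levels given below. Libraries correlated across genes at 0.92 to 0.946 within 3 mg/kg, 0.936 to 0.951 within 2 mg/kg and 0.911 to 0.948 between the doses. On the first principal component of the 6 libraries, 31.5% of the variance, 3 mg/kg replicate 2 lay at 81.59 and the others between -37.96 and 3.21. Xist, the RNA of the inactive X chromosome, and Y-linked genes divided each dose alike, with 2 libraries high in Xist and 1 high in the Y-linked Eif2s3y and Ddx3y. Xist stood at 17.6, 20.4 and 0.0859 CPM at 3 mg/kg, and at 49.5, 52.1 and 0 CPM at 2 mg/kg. Eif2s3y stood at 0, 0 and 90.2 CPM at 3 mg/kg, and at 3.18, 0 and 47 CPM at 2 mg/kg. Replicate 1 of 2 mg/kg therefore held both Xist and Y-linked counts, its Eif2s3y being 6.77% and its Ddx3y 6.73% of the level in replicate 3. Values without that library are given for some of the lists and genes, not for all that it bears on.

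The doses also differed in a property of the libraries as a whole. A transcript length index was taken from log2 levels less each gene's mean over the 36 libraries. It is the median of these deviations in the longest quartile of transcript length less that in the shortest. The index was 0.35, -0.33 and 0.13 at 3 mg/kg, against 0.89, 0.66 and 0.39 at 2 mg/kg. The groups did not overlap, and short transcripts thus stood higher relative to long ones at 3 mg/kg than at 2 mg/kg. The share of counts in the ribosomal RNA entry Rn28s1 was 0.83%, 0.79% and 0.83% at 3 mg/kg, against 1.26%, 1.96% and 1.91% at 2 mg/kg. Because dose and these properties move together over 6 libraries, they cannot be told apart, and medians with the index as a term in the fit are given beside the lists.

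No gene passed the test between 3 and 2 mg/kg. Of 11953 genes tested with edgeR's quasi-likelihood F test, 0 (0%) had a Benjamini-Hochberg adjusted p under 0.05, and the smallest adjusted p was 0.999. DESeq2 also called 0. At an unadjusted p under 0.05 there were 275 genes (2.3%) by edgeR, 105 (0.878%) higher at 3 mg/kg and 170 (1.42%) lower, and 381 by DESeq2. The 3 libraries of 3 mg/kg all lay above the 3 of 2 mg/kg for 584 genes (4.89%) and all below them for 1074 genes (8.99%). In the scrambled control arm, edgeR and DESeq2 each called 0 genes (0%) between 3 and 2 mg/kg, and 294 (2.46%) had an unadjusted p under 0.05 by edgeR, 151 (1.26%) higher and 143 (1.2%) lower, and 395 by DESeq2. There 425 genes (3.56%) lay higher in all 3 mg/kg libraries and 542 (4.53%) lower. The difference between the MIR29B and scrambled arms in their dose difference was called for 0 genes (0%) by either tool, with 410 (3.43%) at an unadjusted p under 0.05 by edgeR, 194 (1.62%) of them positive and 216 (1.81%) negative, and 512 by DESeq2. The unadjusted p-values below are from edgeR's fit, and none of the genes named passed the test. Genes are named by a rule given with the processing, and any other gene named was chosen after its values were seen. A value after ± is a standard deviation for CPM and a standard error for a log2 fold change, 3 over 2 mg/kg, and each group had 3 libraries.

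**Figure D1:**
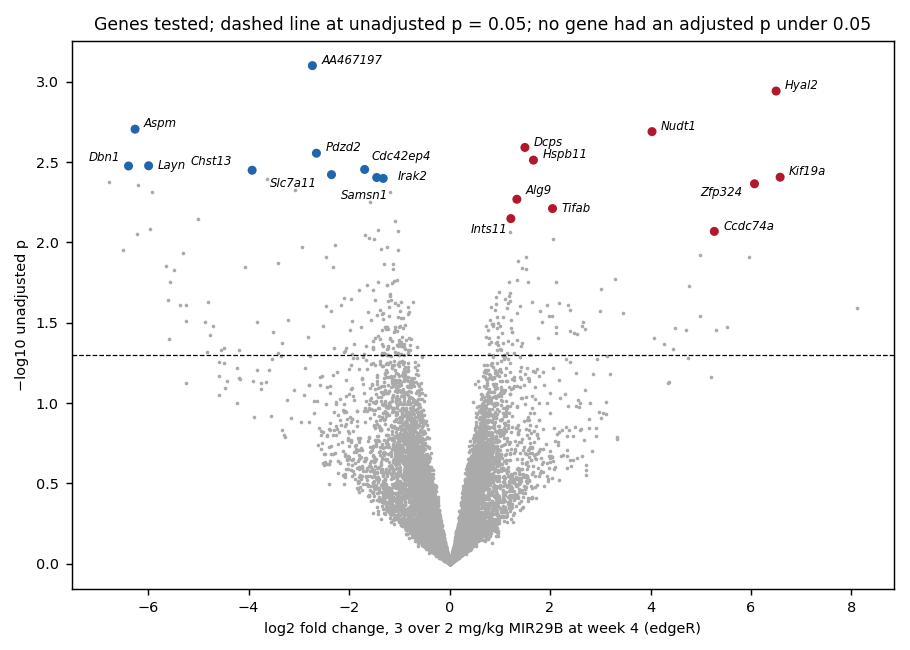
Each point is 1 of the 11953 genes tested: the x axis is the log2 fold change of 3 over 2 mg/kg MIR29B at week 4 and the y axis the -log10 of the unadjusted p, with a dashed line at 0.05. Red marks the 10 genes with an established symbol and the smallest p that lay higher at 3 mg/kg and blue the 10 that lay lower, and none had an adjusted p under 0.05.

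The 10 genes with an established symbol and the smallest p that lay lower at 3 mg/kg, with no call among them, were of several kinds. AA467197, which encodes the small mitochondrial protein Nmes1, stood at 0.282, 0.398 and 0.258 CPM at 3 mg/kg, against 2.02, 1.41 and 2.78 CPM at 2 mg/kg. Every 3 mg/kg library was below every 2 mg/kg library, on 20 counts against 144, with a log2 fold change of -2.73 ± 0.74 (unadjusted p = 0.000792). Cdc42ep4, an effector of the small GTPase Cdc42, stood at 1.62, 1.86 and 1.12 CPM at 3 mg/kg, against 5.67, 3.67 and 5.48 CPM at 2 mg/kg. These groups did not overlap either, with a log2 fold change of -1.69 ± 0.54 (unadjusted p = 0.00351), and -1.58 without 2 mg/kg replicate 1. In the scrambled arm its dose difference was 1.18 ± 0.54, and the difference between arms was -2.87 ± 0.76 (unadjusted p = 0.000653, adjusted p = 1 by edgeR with Benjamini-Hochberg adjustment).

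Irak2, a kinase of the interleukin-1 and Toll-like receptor pathway at chromosome 6, 113638467 to 113695026, stood at 6.06, 4.38 and 5.41 CPM at 3 mg/kg, against 18.2, 10.1 and 11.4 CPM at 2 mg/kg. Its log2 fold change was -1.32 ± 0.43 (unadjusted p = 0.00399) and -1.03 without 2 mg/kg replicate 1, the highest of the 6 libraries. Samsn1, an adaptor protein of blood cells, stood at 4.58, 10.1 and 9.36 CPM at 3 mg/kg, against 30, 16.2 and 19.5 CPM at 2 mg/kg. Its log2 fold change was -1.45 ± 0.47 (unadjusted p = 0.00394), or -1.16 without 2 mg/kg replicate 1. Slc7a11, the cystine transporter that feeds glutathione synthesis, at chromosome 3, 50364936 to 50499087, stood at 2.75, 2.12 and 3.09 CPM at 3 mg/kg, against 23.5, 7.52 and 9.61 CPM at 2 mg/kg. The 3 mg/kg libraries lay close together and the 2 mg/kg libraries spread widely, with replicate 1 far the highest, and the log2 fold change was -2.35 ± 0.75 (unadjusted p = 0.00378), or -1.68 without that library. Pdzd2 (-2.65 ± 0.82) and the chondroitin sulfotransferase gene Chst13 (-3.93 ± 1.25, on 4 counts against 66) completed the genes with counts at both doses.

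Some of the 20 genes had counts at 1 dose only. Aspm, a protein of the mitotic spindle, Layn, a hyaluronan receptor, and Dbn1, an actin-binding protein, had 0 counts at 3 mg/kg, against 34, 28 and 38 counts over the 2 mg/kg libraries. Set against a floor of 3 counts over the summed libraries, they were at least 11.5-fold, 9.48-fold and 12.9-fold lower. All deposited counts were even, and a floor of 6 counts, which applies if each fragment was counted as 2, gives 5.75-fold, 4.74-fold and 6.43-fold. Hyal2, a cell surface hyaluronidase, Kif19a, a kinesin, the zinc finger gene Zfp324 and Ccdc74a had 36, 44, 34 and 16 counts over the 3 mg/kg libraries, against 0 at 2 mg/kg. By the floor of 3 counts they were at least 11.8-fold, 14.4-fold, 11.2-fold and 5.25-fold higher, and by the floor of 6 counts 5.91-fold, 7.22-fold, 5.58-fold and 2.63-fold. The floors cover counting error only. Zfp324, which holds the 8-mer site, was at 0.916, 0 and 0.343 CPM at 3 mg/kg, so 1 of its 3 mg/kg libraries was also at 0.

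On the higher side, genes with counts in every library had modest differences. Dcps, the scavenger decapping enzyme of mRNA decay at chromosome 9, 35124414 to 35175987, stood at 3.66, 5.44 and 4.29 CPM at 3 mg/kg, against 1.79, 1.41 and 1.53 CPM at 2 mg/kg. The groups lay well apart, with a log2 fold change of 1.5 ± 0.46 (unadjusted p = 0.00256), 1.11 with the length index as a term, and 0.17 ± 0.46 in the scrambled arm. Alg9, a mannosyltransferase of N-glycan assembly, stood at 5, 6.9 and 6.01 CPM at 3 mg/kg, against 2.18, 2.16 and 2.69 CPM at 2 mg/kg, a log2 fold change of 1.34 ± 0.45 (unadjusted p = 0.00538). Ints11, the endonuclease of the Integrator complex, averaged 4.01 ± 0.573 CPM at 3 mg/kg and 1.71 ± 0.305 CPM at 2 mg/kg. Hspb11, a component of intraflagellar transport, averaged 2.37 ± 0.375 CPM at 3 mg/kg and 0.744 ± 0.328 CPM at 2 mg/kg, and the TIFA-related gene Tifab 2.1 ± 1.31 CPM at 3 mg/kg and 0.501 ± 0.339 CPM at 2 mg/kg. Nudt1, which removes oxidised nucleotides, had 40 counts at 3 mg/kg against 2 at 2 mg/kg, all of the 2 in replicate 1.

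**Figure D2:**
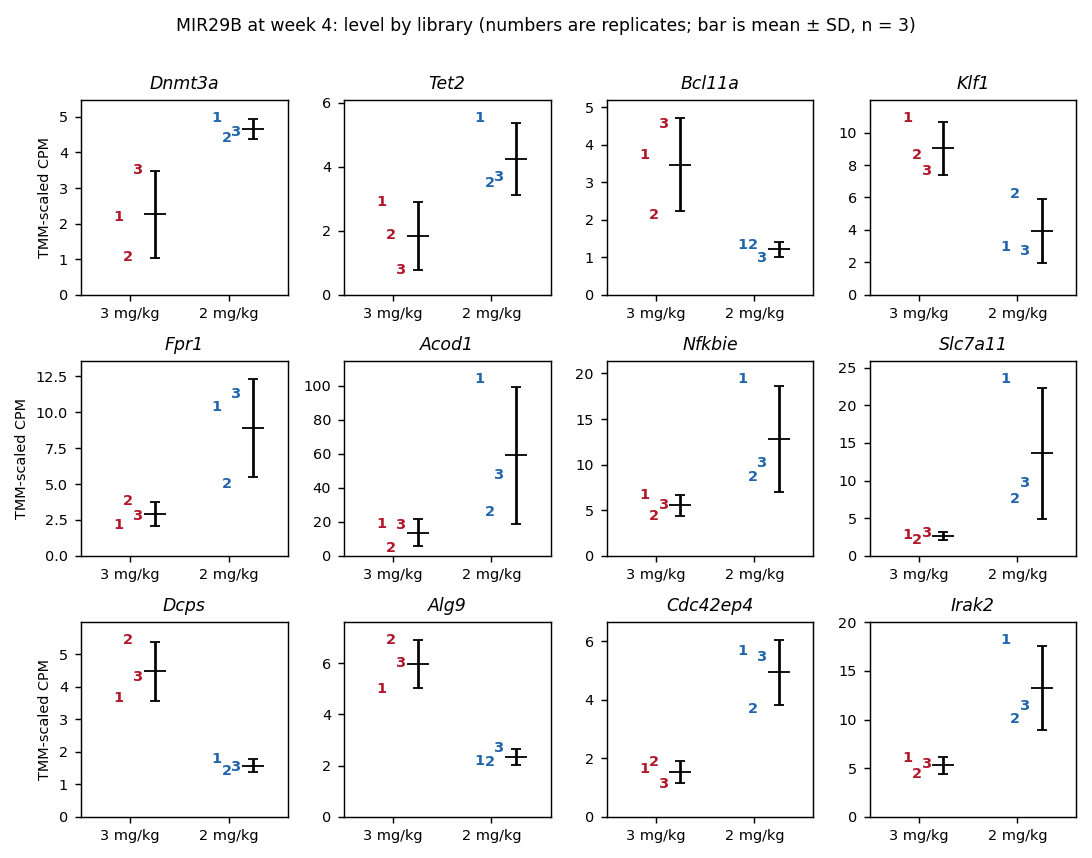
The y axis of each panel is the TMM-scaled CPM of 1 gene, with the 3 mg/kg MIR29B libraries of week 4 on the left in red and the 2 mg/kg libraries on the right in blue; digits are replicate numbers and the bar is the mean ± SD of 3 libraries. In each of the 12 genes shown the doses do not overlap, and 2 mg/kg replicate 1 is the highest library for Slc7a11 (23.5 CPM), Irak2 (18.2 CPM), Nfkbie (19.4 CPM) and Acod1 (104 CPM).

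Dnmt3a and Tet2, both targets of miR-29 with the 8-mer site printed above, lay lower at the higher dose in all libraries and did not pass the test. Dnmt3a, which sets new methyl marks on DNA and is encoded at chromosome 12, 3801559 to 3914443, had 2.18, 1.06 and 3.52 CPM at 3 mg/kg, against 4.97, 4.42 and 4.58 CPM at 2 mg/kg. The 2 mg/kg libraries were within a narrow range and the 3 mg/kg libraries below it, with means of 2.26 ± 1.23 CPM at 3 mg/kg and 4.66 ± 0.285 CPM at 2 mg/kg. Its log2 fold change was -1.03 ± 0.73 (unadjusted p = 0.168), -0.98 without 2 mg/kg replicate 1, -0.67 without 3 mg/kg replicate 2, and -0.37 with the length index as a term. In the scrambled arm Dnmt3a averaged 2.33 CPM at 3 mg/kg and 2.07 CPM at 2 mg/kg, a log2 fold change of 0.2 ± 0.74, and the difference between arms was -1.23 ± 1.05 (unadjusted p = 0.247). The 2 mg/kg MIR29B group was thus the highest of the 4 week 4 groups in mean level, and the 3 mg/kg MIR29B group lay near both scrambled groups. Tet2, which oxidises methylated cytosine, at chromosome 3, 133463677 to 133545136, stood at 2.89, 1.86 and 0.773 CPM at 3 mg/kg, against 5.52, 3.48 and 3.68 CPM at 2 mg/kg. These groups were also apart, with a log2 fold change of -1.19 ± 0.84 (unadjusted p = 0.164) that came to -0.39 with the length index as a term.

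Other writers and erasers of DNA methylation lay on both sides. Dnmt1, the maintenance methyltransferase, stood at 27.6, 18.4 and 34.9 CPM at 3 mg/kg, against 30.7, 31.3 and 19.9 CPM at 2 mg/kg. The libraries of the doses were mixed, and its log2 fold change of -0.02 ± 0.48 took a positive sign with the length index as a term (0.24), in a fit to the groups compared alone (0.03) and without 2 mg/kg replicate 1 (0.07). Tet3, with the site, stood at 10.6, 17.2 and 8.24 CPM at 3 mg/kg, against 17.5, 16.8 and 12 CPM at 2 mg/kg, a log2 fold change of -0.36 ± 0.38. Dnmt3b was barely counted, with 36 counts over the 3 mg/kg libraries against 28 over those of 2 mg/kg, a log2 fold change of 0.32 ± 1.32. Gadd45a, a stress-induced gene linked to demethylation, stood at 1180, 1380 and 1590 CPM at 3 mg/kg, against 632, 1140 and 831 CPM at 2 mg/kg, a log2 fold change of 0.67 ± 0.5. Of the 17 tested members of the DNA methylation list, 0 were called, 2 (11.8%) had all 3 mg/kg libraries above those of 2 mg/kg, against 4.89% of all genes, and 3 (17.6%) all below, against 8.99%. The median log2 fold change was -0.02, against -0.04 over all genes tested, and 0.23 with the length index as a term, against 0.03 over all genes.

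Known targets of miR-29 as a list lay lower at 3 mg/kg, and so did long transcripts in general. Of 58 listed targets, 45 passed the filter on low counts, with the collagen genes Col1a1 and Col1a2 and the elastin gene among those left out, and 0 were called. Their median log2 fold change was -0.37, with 32 lower and 13 higher at 3 mg/kg, and 7 of 45 (15.6%) had all 3 mg/kg libraries below those of 2 mg/kg, against 8.99% of all genes. The median was -0.32 without 2 mg/kg replicate 1, -0.29 without 3 mg/kg replicate 2, -0.07 with the length index as a term and 0.08 in the scrambled arm. The 23 targets with the 8-mer site had a median of -0.36 and the 22 without it a median of -0.38. The median transcript length of the 45 targets was 4070 bases, against 2844 bases over all genes tested with a length. The third quartile of transcript length, at a median of 3467 bases, had a median log2 fold change of -0.12, with 9.47% lower in all libraries. The longest quartile, at a median of 5696 bases, had -0.32 and 18.1%. The part of transcript length in the level of the targets was not tested.

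Among single targets, Tnfaip3, the ubiquitin-editing inhibitor of NF-kappa-B, stood at 64.3, 48.3 and 86.3 CPM at 3 mg/kg, against 134, 121 and 122 CPM at 2 mg/kg, a log2 fold change of -0.92 ± 0.56. Dicer1, the nuclease that makes microRNAs, stood at 2.04, 3.58 and 2.23 CPM at 3 mg/kg, against 4.74, 4.23 and 3.59 CPM at 2 mg/kg. Both genes were lower in every 3 mg/kg library, and Insig1 and Itgb1 likewise, by 0.58 and 0.4 on the log2 scale. Opposite to them, Ppm1d, a p53-induced phosphatase, stood at 30.3, 20 and 34.3 CPM at 3 mg/kg, against 10.4, 20 and 11.9 CPM at 2 mg/kg, a log2 fold change of 1 ± 0.52. Lpl, lipoprotein lipase, averaged 2.71 ± 1.64 CPM at 3 mg/kg and 0.883 ± 0.366 CPM at 2 mg/kg. Mcl1, the BCL2 family survival factor with the site, stood at 143, 168 and 170 CPM at 3 mg/kg, against 271, 165 and 235 CPM at 2 mg/kg, so its groups overlapped, with a log2 fold change of -0.48 ± 0.36.

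The medians of genes holding the 8-mer lay near those of all genes in the same quartile of transcript length. The shares lying lower in all libraries were close to those of the quartiles or rested on few genes, and no difference was tested. Within the longest quartile, genes with the site had a median length of 6456 bases, against 5696 bases over the quartile. Of 495 genes with the site, 364 were tested and 0 called. In all libraries 53 (14.6%) lay lower at 3 mg/kg, against 8.99% of all genes, and 7 (1.92%) higher, against 4.89%. The median log2 fold change over the 364 was -0.15, or 0.05 with the length index as a term. In the longest quartile of transcripts, 35 of 178 genes with the site (19.7%) lay lower in all libraries, beside 534 of 2945 genes of that quartile (18.1%), and the medians were -0.33 with the site and -0.32 over the quartile. In the third quartile, 12 of 96 genes with the site (12.5%) did so, beside 9.47% of the quartile, with medians of -0.08 and -0.12. In the second quartile, 4 of 55 (7.27%) did so, beside 5.33%, with medians of 0.01 and 0.03. In the shortest quartile, 2 of 35 (5.71%) did so, beside 2.85%, with medians of 0.15 and 0.26. Cflar, an inhibitor of caspase-8 activation that holds the site, had the smallest p among site genes after Zfp324 and Chst13, with 6.48, 5.17 and 7.13 CPM at 3 mg/kg, against 15.3, 11.2 and 12.2 CPM at 2 mg/kg, a log2 fold change of -1.04 ± 0.42 (unadjusted p = 0.0172). Its 2 groups were clear of each other, and the value was -0.9 without 2 mg/kg replicate 1 and -0.68 with the length index as a term.

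The machinery that loads and uses microRNAs was lower on balance, with 0 genes called and a median of 0.04 in the scrambled arm. Its 19 tested genes, with a median transcript length of 6029 bases, had 16 lower and 3 higher at 3 mg/kg, 4 (21.1%) with all libraries lower, against 8.99% of all genes and 18.1% of the longest quartile, and a median of -0.33 that came to -0.03 with the length index as a term. Tnrc6a, the GW182 scaffold of silencing complexes, stood at 4.86, 5.97 and 3.18 CPM at 3 mg/kg, against 10.3, 9.77 and 8.26 CPM at 2 mg/kg. Its log2 fold change was -1.02 ± 0.5 (unadjusted p = 0.0487), and the groups did not overlap.

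Repressors of fetal globin were evenly divided, and Bcl11a and Klf1 lay higher at the higher dose without passing the test. Bcl11a, which silences fetal globin in adult red cells and is also a factor of B cells, at chromosome 11, 24076564 to 24173558, stood at 3.73, 2.12 and 4.55 CPM at 3 mg/kg, against 1.32, 1.32 and 0.988 CPM at 2 mg/kg. All 3 mg/kg libraries were above the 2 mg/kg ones, on 244 counts against 84, and replicate 2 was the lowest of them. Its log2 fold change was 1.52 ± 0.59 (unadjusted p = 0.0147), 1.59 without 2 mg/kg replicate 1, 1.66 with the length index as a term and -0.01 ± 0.64 in the scrambled arm. The difference between arms was 1.53 ± 0.86 (unadjusted p = 0.0822). Summed B cell markers, given below, overlapped between the doses, with 2 mg/kg replicate 3 (234 CPM) above 3 mg/kg replicates 2 and 3 (166 and 224 CPM). Their part in the level of Bcl11a was not tested.

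Klf1, the erythroid factor that activates adult globin and Bcl11a, at chromosome 8, 84901982 to 84905291, stood at 10.9, 8.62 and 7.64 CPM at 3 mg/kg, against 2.95, 6.2 and 2.69 CPM at 2 mg/kg. The groups did not overlap, and the log2 fold change was 1.2 ± 0.6 (unadjusted p = 0.0562), 0.8 with the length index as a term. Gata1, the master factor of red cell genes, stood at 37.8, 27.2 and 37.4 CPM at 3 mg/kg, against 14.6, 31.5 and 19 CPM at 2 mg/kg, so that 2 mg/kg replicate 2 lay among the 3 mg/kg libraries. Zfpm1, the partner of Gata1, spread widely at both doses, with 85.9, 10.9 and 63.6 CPM at 3 mg/kg and 20, 52.8 and 14.8 CPM at 2 mg/kg. Zbtb7a, a further repressor of fetal globin, stood at 19.2, 7.29 and 11.5 CPM at 3 mg/kg, against 16.4, 15.2 and 13.6 CPM at 2 mg/kg, a log2 fold change of -0.25 ± 0.49 that was 0.22 with the length index as a term. Myb, with 30 counts at 3 mg/kg and 26 at 2 mg/kg, gave 0.35 ± 1.07. Of the 33 tested members 17 lay higher and 16 lower at 3 mg/kg, 0 were called, and the median was 0, or 0.22 with the length index as a term. Those without overlap were 3 higher (9.09%, against 4.89% of all genes) and 1 lower (3.03%, against 8.99%).

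**Figure D3:**
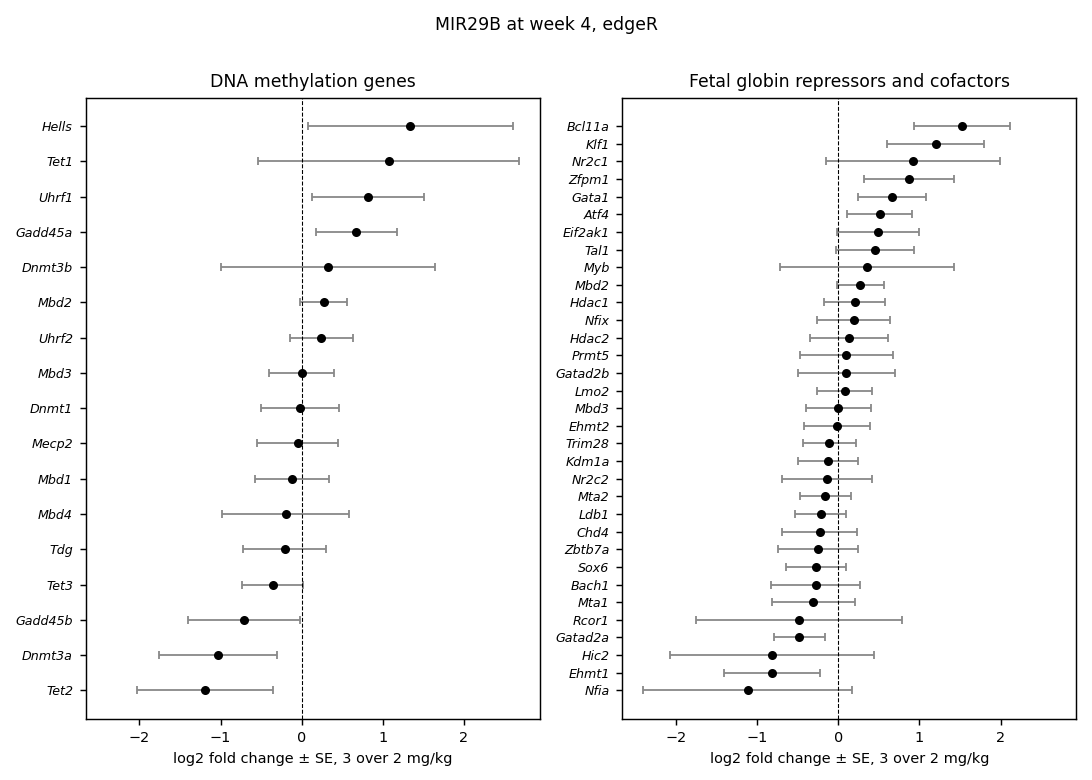
The x axis is the log2 fold change of 3 over 2 mg/kg MIR29B at week 4 with its standard error, from edgeR, for the 17 tested DNA methylation genes on the left and the 33 tested fetal globin repressors and cofactors on the right. Bcl11a (1.52) and Klf1 (1.2) lie farthest to the right in their panel and Dnmt3a (-1.03) and Tet2 (-1.19) farthest to the left in theirs, and no gene passed the test.

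More red cell genes outside this set lay higher than lower at 3 mg/kg, with 11 of 16 heme synthesis genes, 11 of 14 iron genes, 20 of 26 membrane genes and 20 of 30 maturation genes higher, against 47.6% of all genes. Heme synthesis genes had a median of 0.21 over 16 tested, iron uptake and storage genes 0.3 over 14, membrane genes 0.26 over 26 and maturation genes 0.1 over 30, with 0 called in each. The values with the length index as a term were -0.05, 0.08, 0.24 and 0.03. In the same order, 0%, 7.14%, 7.69% and 6.67% lay higher in all libraries, against 4.89% of all genes. Those lower in all libraries were 6.25%, 0%, 3.85% and 3.33%, against 8.99%. Summed levels overlapped in each list. Heme synthesis genes summed to 123000, 160000 and 122000 CPM at 3 mg/kg, against 128000, 171000 and 137000 CPM at 2 mg/kg. Iron genes summed to 50100, 81100 and 64900 CPM, against 47700, 69000 and 41300 CPM. Without 1 library the median ran between 0.04 and 0.48 for heme synthesis and between 0.04 and 0.71 for membrane genes, and the iron list was at 0.16 without 2 mg/kg replicate 1. Alas1, the housekeeping counterpart of Alas2, was among the 5 heme synthesis genes with a lower value and the only one of the 16 without overlap, with 1.76, 1.46 and 1.63 CPM at 3 mg/kg, against 4.19, 3.01 and 4.49 CPM at 2 mg/kg. It lay lower in every 3 mg/kg library, with a log2 fold change of -1.26 ± 0.57 (unadjusted p = 0.0337). Jak2, the kinase of the erythropoietin receptor, stood at 14.2, 19.6 and 17.3 CPM at 3 mg/kg, against 31.2, 31.2 and 33.7 CPM at 2 mg/kg, a log2 fold change of -0.91 ± 0.51 that was -0.33 with the length index as a term. The receptor gene Epor lay the other way, with 3.95, 1.59 and 4.04 CPM at 3 mg/kg and 1.55, 2.44 and 0.719 CPM at 2 mg/kg, overlapping. Its log2 fold change was 1.03 ± 0.59, against -1.42 ± 0.61 in the scrambled arm. The difference between arms was 2.45 ± 0.85 (unadjusted p = 0.00674). Ncoa4, the receptor for autophagy of ferritin, averaged 4710 ± 541 CPM at 3 mg/kg and 3420 ± 464 CPM at 2 mg/kg, and Cd47, the surface signal against phagocytosis, 286 ± 53.1 CPM at 3 mg/kg and 173 ± 55.6 CPM at 2 mg/kg.

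Mouse globin transcripts remain countable in these mice, and reads of near-identical globin genes could be split or shared by the counting. Of 13 listed, 9 were tested, with a median of 0.09 that was -0.37 without 3 mg/kg replicate 2 and -0.44 with the length index as a term. Of these 5 lay higher and 4 lower at 3 mg/kg. Hbb-bh1, an embryonic beta-like globin, stood at 1.06, 1.59 and 0.601 CPM at 3 mg/kg, against 0.466, 0.564 and 0.449 CPM at 2 mg/kg. Its log2 fold change was 1.11 ± 0.81, on 68 counts against 34, and 0.55 with the length index as a term. Hbb-b2 (-0.78 ± 0.86) and Hba-a1 (-0.59 ± 0.66) lay lower at 3 mg/kg, with overlapping groups. Human globin genes, the fetal ones included, are not analysed here.

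Genes of the NF-kappa-B pathway had the highest share of members below 2 mg/kg in all 3 mg/kg libraries among the gene lists tested, though not the highest share with a negative value. Of 25 tested subunits and feedback inhibitors, 0 were called, 20 lay lower and 5 higher, 11 (44%) had all 3 mg/kg libraries below those of 2 mg/kg, against 8.99% of all genes, and 0 (0%) had all above. The median log2 fold change was -0.35, the same without 2 mg/kg replicate 1, -0.44 without 3 mg/kg replicate 2 and -0.14 with the length index as a term. Their summed level was 459, 373 and 521 CPM at 3 mg/kg, against 833, 610 and 650 CPM at 2 mg/kg. In the scrambled arm the median was 0.24 and the summed level 694, 483 and 458 CPM at 3 mg/kg, against 398, 464 and 322 CPM at 2 mg/kg.

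Nfkbie, an inhibitor that holds NF-kappa-B in the cytoplasm, at chromosome 17, 45555700 to 45563169, stood at 6.69, 4.38 and 5.58 CPM at 3 mg/kg, against 19.4, 8.65 and 10.2 CPM at 2 mg/kg. Replicate 1 of 2 mg/kg was far the highest, and the log2 fold change was -1.2 ± 0.51 (unadjusted p = 0.0252), or -0.76 without it. In the scrambled arm Nfkbie stood at 15.8, 5.78 and 4.33 CPM at 3 mg/kg, against 2.76, 4.14 and 1.94 CPM at 2 mg/kg, a log2 fold change of 1.56 ± 0.52. The difference between arms was -2.75 ± 0.73 (unadjusted p = 0.000638), with an adjusted p of 1 by edgeR with Benjamini-Hochberg adjustment. Zc3h12a, the nuclease Regnase-1 that destroys cytokine mRNAs, stood at 19.3, 12.6 and 13.5 CPM at 3 mg/kg, against 37.7, 23.7 and 29.6 CPM at 2 mg/kg, a log2 fold change of -1 ± 0.45 (unadjusted p = 0.0334). N4bp1, an inhibitor of the pathway, stood at 7.75, 7.16 and 8.93 CPM at 3 mg/kg, against 22.5, 13.4 and 12.4 CPM at 2 mg/kg. Its log2 fold change was -1.02 ± 0.52, or -0.7 without 2 mg/kg replicate 1. Of the other 8 members without overlap, Rel (-1.51 ± 0.99) and Nfkbiz (-1.23 ± 0.63) differed most and Nfkbia (-0.57 ± 0.49) and Nfkbib (-0.61 ± 0.36) least, with Bcl3, Tnfaip3, Birc3 and Cyld between them.

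Cytokines, chemokines and receptors of inflammation showed the same side and a wider spread. Over 36 tested genes the median was -0.49, with 24 lower, 12 higher and 0 called. All 3 mg/kg libraries lay lower for 7 (19.4%), against 8.99% of all genes, and higher for 2 (5.56%), against 4.89%. Without 2 mg/kg replicate 1 the median was -0.21, with the length index as a term -0.34, and in the scrambled arm 0.8. Acod1, the enzyme that makes itaconate in activated myeloid cells, at chromosome 14, 103047012 to 103056573, stood at 18.6, 4.51 and 17.9 CPM at 3 mg/kg, against 104, 25.8 and 47.7 CPM at 2 mg/kg. Its log2 fold change was -2.11 ± 1.03 (unadjusted p = 0.0484), or -1.43 without 2 mg/kg replicate 1. In the scrambled arm it lay the other way, with 99.6, 18.2 and 26.2 CPM at 3 mg/kg, against 2.57, 11.6 and 4.11 CPM at 2 mg/kg, and the difference between arms was -5.09 ± 1.48 (unadjusted p = 0.00162), with an adjusted p of 1 by edgeR with Benjamini-Hochberg adjustment. The chemokine Cxcl2 stood at 43.5, 47.4 and 55.6 CPM at 3 mg/kg, against 164, 91.2 and 80.8 CPM at 2 mg/kg, a log2 fold change of -1.2 ± 0.71. Nlrp3, the sensor of the inflammasome, stood at 19.4, 11.1 and 22.9 CPM at 3 mg/kg, against 65.8, 25.9 and 29 CPM at 2 mg/kg. Neither gene's groups overlapped, and both were highest in 2 mg/kg replicate 1; without it their log2 fold changes were -0.82 for Cxcl2 and -0.62 for Nlrp3. Cd80, a costimulatory ligand, lay lower at 3 mg/kg (-1.53 ± 0.73, or -1.08 without 2 mg/kg replicate 1). Cd200, an inhibitory surface ligand, lay higher (1.98 ± 0.87, on 30 counts against 8). In the scrambled arm the dose difference of Cd200 was -2.53 ± 0.9, and the difference between arms was 4.51 ± 1.25 (unadjusted p = 0.000963).

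Markers of several white cell types and of platelets also differed between the doses, and in blood fewer cells of a type and less RNA per cell cannot be told apart. Neutrophil markers lay lower at 3 mg/kg in 26 of 28 tested, with 0 called and a median of -0.45. Of them 8 (28.6%) lay lower in all libraries, against 8.99% of all genes. Their summed level was 815, 1280 and 1080 CPM at 3 mg/kg, against 1890, 968 and 1370 CPM at 2 mg/kg, so the sums overlapped. The median was -0.3 without 2 mg/kg replicate 1, -0.5 with the length index as a term and 0.26 in the scrambled arm. Their part in the lower levels of Acod1, Nfkbie and the other inflammatory genes was not tested. Fpr1, the formyl peptide receptor at chromosome 17, 17876471 to 17883939, stood at 2.18, 3.85 and 2.75 CPM at 3 mg/kg, against 10.4, 4.98 and 11.3 CPM at 2 mg/kg. The groups were apart, with a log2 fold change of -1.61 ± 0.59 (unadjusted p = 0.0094), or -1.48 without 2 mg/kg replicate 1. In the scrambled arm it was 0.87 ± 0.58, and the difference between arms was -2.48 ± 0.82 (unadjusted p = 0.00483). G0s2, an inhibitor of lipolysis abundant in neutrophils, stood at 15.8, 13.9 and 20.4 CPM at 3 mg/kg, against 72.6, 23.7 and 29.1 CPM at 2 mg/kg, and its log2 fold change of -1.32 ± 0.57 (unadjusted p = 0.0274) was -0.66 without 2 mg/kg replicate 1. The decoy receptor gene Il1r2 stood at 16.8, 13.5 and 24.8 CPM at 3 mg/kg, against 65.3, 26.2 and 41.4 CPM at 2 mg/kg. Its log2 fold change was -1.27 ± 0.67, or -0.88 without 2 mg/kg replicate 1. Hdc, the histamine-forming enzyme of basophils and mast cells, stood at 12.9, 18.7 and 13.4 CPM at 3 mg/kg, against 76.2, 29.6 and 29.6 CPM at 2 mg/kg, a log2 fold change of -1.59 ± 0.54 (unadjusted p = 0.00557), or -0.98 without replicate 1. Its list of eosinophil, basophil and mast cell markers had a median of -0.2 over 15 tested, with 9 lower, 6 higher and 0 called. On each side 1 member (6.67%) was without overlap, against 8.99% of all genes lower and 4.89% higher. The member on the higher side was Ear2, with 13.8 ± 1.28 CPM at 3 mg/kg and 6.45 ± 2.13 CPM at 2 mg/kg.

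T cell and platelet markers were also lower on balance. T cell markers had a median of -0.4, with 21 of 25 lower and 7 (28%) lower in all libraries, against 8.99% of all genes. Their summed level was 160, 203 and 185 CPM at 3 mg/kg, against 237, 179 and 299 CPM at 2 mg/kg. The median was -0.52 to -0.17 when 1 library was left out and -0.2 with the length index as a term. Cd8a, the coreceptor of cytotoxic T cells, stood at 4.72, 5.31 and 3.95 CPM at 3 mg/kg, against 8.93, 8.83 and 9.52 CPM at 2 mg/kg. Both groups were tight, and the log2 fold change was -0.97 ± 0.46 (unadjusted p = 0.0414), with -0.98 without 2 mg/kg replicate 1. Ctla4, an inhibitory receptor of T cells, stood at 3.66, 6.5 and 3.61 CPM at 3 mg/kg, against 11.2, 7.05 and 17 CPM at 2 mg/kg, a log2 fold change of -1.36 ± 0.51 (unadjusted p = 0.011). Platelet and megakaryocyte markers had a median of -0.29, with 24 of 25 lower and 3 (12%) lower in all libraries, against 8.99% of all genes. Their summed level was 695, 544 and 592 CPM at 3 mg/kg, against 645, 874 and 804 CPM at 2 mg/kg, and the median was -0.52 without 2 mg/kg replicate 1, -0.44 with the length index as a term and 0.42 in the scrambled arm. Plek, a kinase C substrate of platelets and white cells, averaged 85.5 ± 8.26 CPM at 3 mg/kg and 147 ± 27.8 CPM at 2 mg/kg. Monocyte and macrophage markers had a median of 0.06 over 27 tested, or 0.11 with the length index as a term, and NK cell markers -0.01 over 25, or 0.01.

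B cell genes and the class II presentation genes that B cells use lay higher at 3 mg/kg. B cell markers had a median of 0.51, with 18 of 20 higher, 5 (25%) higher in all libraries against 4.89% of all genes, and 0 called. The median was 0.46 without 2 mg/kg replicate 1, 0.78 without 3 mg/kg replicate 2, 0.48 with the length index as a term and -0.19 in the scrambled arm. Their summed level was 315, 166 and 224 CPM at 3 mg/kg, against 111, 114 and 234 CPM at 2 mg/kg, so 2 mg/kg replicate 3 lay among the 3 mg/kg libraries. Cxcr5, the receptor that guides B cells to follicles, stood at 3.73, 2.12 and 2.75 CPM at 3 mg/kg, against 0.777, 1.32 and 1.98 CPM at 2 mg/kg, a log2 fold change of 1.09 ± 0.53 (unadjusted p = 0.0499). Fcrla, an Fc receptor-like protein of B cells, stood at 8.46, 6.63 and 6.78 CPM at 3 mg/kg, against 1.86, 1.41 and 6.29 CPM at 2 mg/kg, and Cd79b, Ms4a1 and Pax5 were the other markers without overlap.

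All 13 class II presentation genes had a higher value at 3 mg/kg, between 0.23 and 0.95 on the log2 scale, with a median of 0.49. Without overlap were 3 (23.1%), against 4.89% of all genes. Their summed level was 1160, 749 and 792 CPM at 3 mg/kg, against 457, 497 and 999 CPM at 2 mg/kg, with 2 mg/kg replicate 3 again among the 3 mg/kg libraries. Ifi30, the thiol reductase of antigen processing at chromosome 8, 70762773 to 70766663, stood at 18, 19.6 and 11.2 CPM at 3 mg/kg, against 9.94, 7.24 and 8.8 CPM at 2 mg/kg, a log2 fold change of 0.91 ± 0.39 (unadjusted p = 0.0262). The median of the class II list was 0.35 without 2 mg/kg replicate 1, 0.69 without 3 mg/kg replicate 2, 0.49 with the length index as a term and -0.06 in the scrambled arm.

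**Figure D4:**
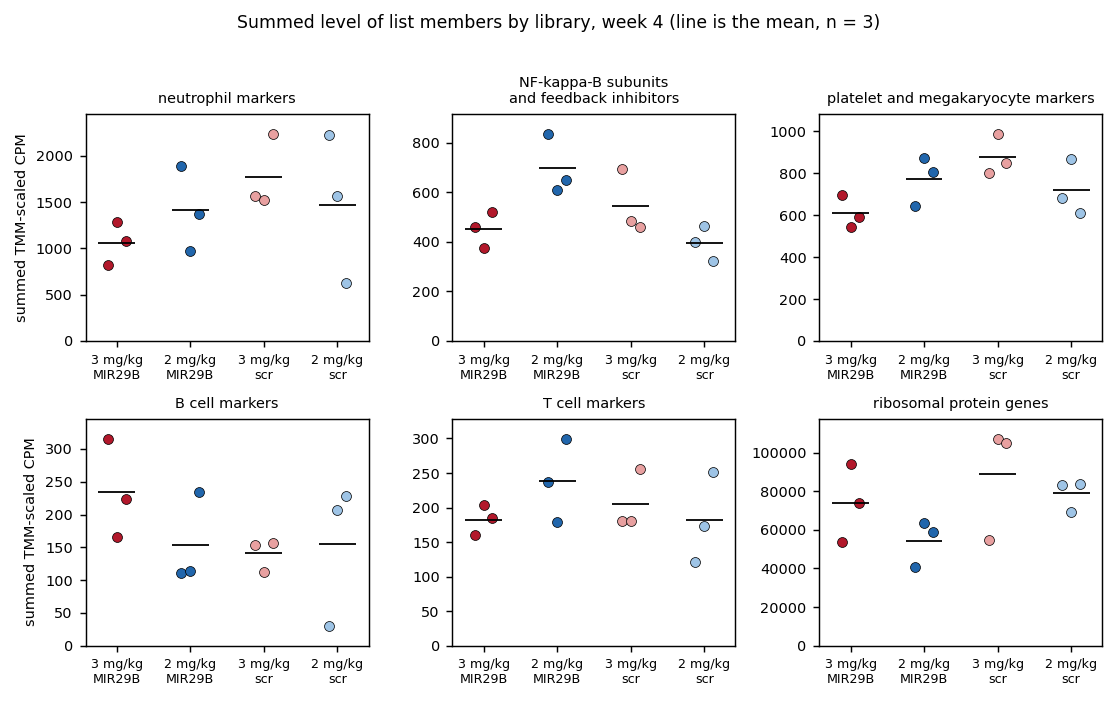
The y axis is the summed TMM-scaled CPM of the tested members of a list, 1 point per library, for 3 and 2 mg/kg MIR29B and then 3 and 2 mg/kg scrambled (scr) at week 4, with a line at the mean of 3 libraries. NF-kappa-B genes are the panel of white cell and pathway genes in which the MIR29B doses do not overlap, with 373 to 521 CPM at 3 mg/kg and 610 to 833 CPM at 2 mg/kg.

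Genes of ribosomes, the respiratory chain and the proteasome lay higher at 3 mg/kg together, and their transcripts are short. Ribosomal protein genes had a median log2 fold change of 0.5, with 80 of 83 higher. Of them 22 (26.5%) lay higher in all libraries, against 4.89% of all genes. Respiratory chain genes had a median of 0.49, with 77 of 78 higher and 12 (15.4%) higher in all libraries, against the same 4.89%. Mitochondrial ribosomal protein genes had a median of 0.38 over 78 tested. Without 2 mg/kg replicate 1 the medians of these lists, in the order given, were 0.34, 0.35 and 0.31. With the length index as a term these medians were 0.02, -0.04 and 0, and the median transcript lengths were 834, 738 and 1224 bases. Many of these genes belong to the shortest quartile, from which the index is itself computed. Part of the fall towards 0 is therefore built in. The shortest quartile of all genes, at a median length of 1246 bases, had a median log2 fold change of 0.26, and 9.43% of it lay higher in all libraries. At week 0 the same lists lay lower at 3 mg/kg, with medians of -0.81, -0.84 and -0.28. The length index at week 0 averaged 0.253 ± 0.686 in the 3 mg/kg libraries and -0.38 ± 0.761 in the 2 mg/kg libraries, so it too lay the other way.

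Proteasome subunits, with a median transcript length of 1476 bases, had a median of 0.43, with 35 of 38 higher, 16 (42.1%) higher in all libraries against 4.89% of all genes, and 0 called. The median was 0.38 without 2 mg/kg replicate 1, 0.14 with the length index as a term, -0.09 in the scrambled arm and -0.26 at week 0. Psmc6, an ATPase of the regulatory particle at chromosome 14, 45329823 to 45349074, stood at 18.7, 22.7 and 41.1 CPM at 3 mg/kg, against 7.38, 14.8 and 14.6 CPM at 2 mg/kg, a log2 fold change of 1.16 ± 0.55 (unadjusted p = 0.0409). Psma5, of the core particle, stood at 34.5, 32 and 53.1 CPM at 3 mg/kg, against 12.7, 22.1 and 19.1 CPM at 2 mg/kg. Replicate 1 of 2 mg/kg was the lowest library for both genes.

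**Figure D5:**
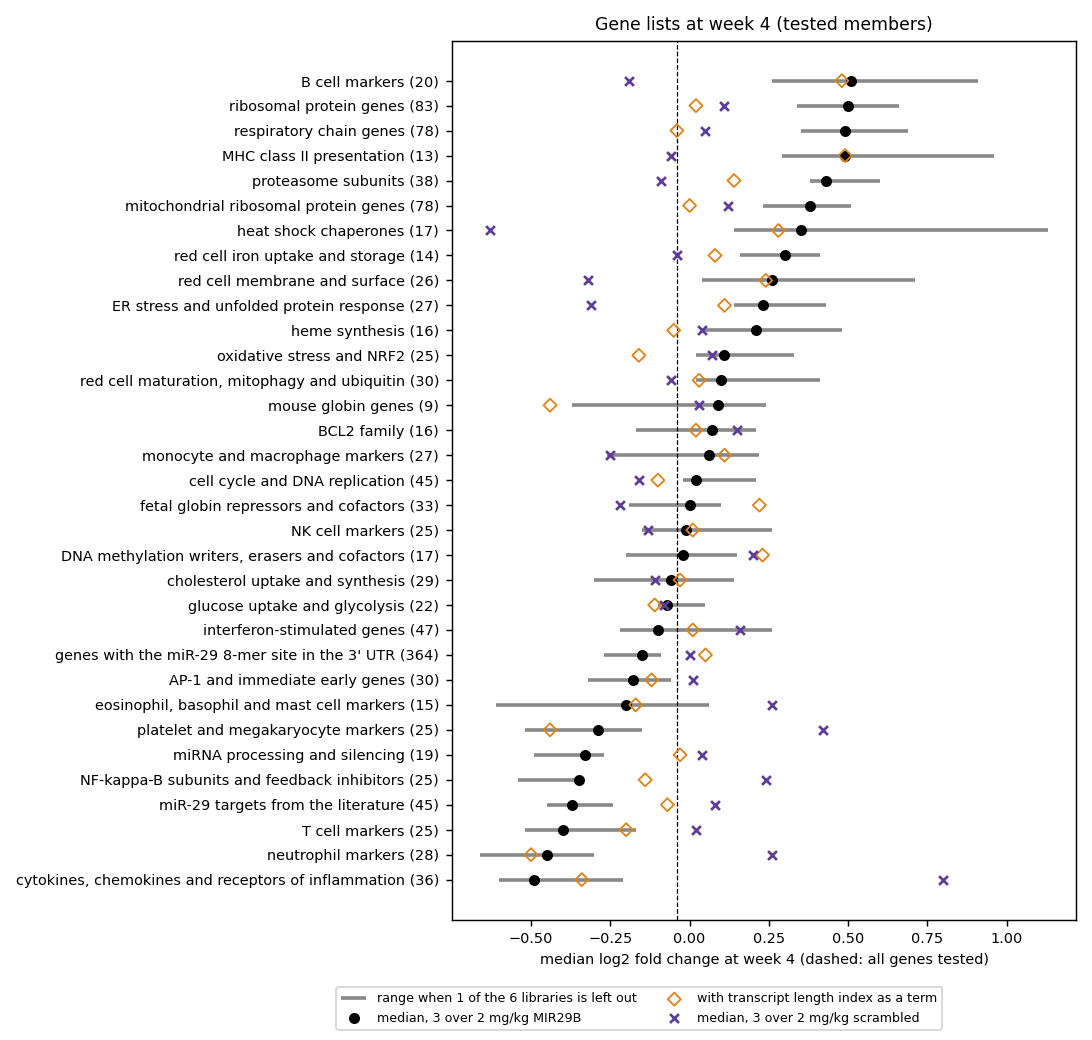
Each row is a gene list with its number of tested members, and the x axis is the median log2 fold change of 3 over 2 mg/kg at week 4: black for MIR29B with a grey line for the range when 1 of the 6 libraries is left out, orange with the length index as a term, and purple crosses for the scrambled arm. Ribosomal (0.5) and respiratory chain genes (0.49) lie at 0.02 and -0.04 in orange, while B cell markers (0.51) lie at 0.48 and neutrophil markers (-0.45) at -0.5. The index is computed in part from short transcripts such as those of the ribosomal and respiratory chain lists, so their fall is partly built in.

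At week 0 no gene passed the test between 3 and 2 mg/kg MIR29B either. Of 11953 genes, edgeR called 0 (0%), and 475 (3.97%) had an unadjusted p under 0.05, 190 (1.59%) higher and 285 (2.38%) lower. By DESeq2 the counts were 0 and 692. All 3 mg/kg libraries lay above those of 2 mg/kg for 680 genes (5.69%) and below them for 456 (3.81%). The difference between week 4 and week 0 in the dose difference was called for 0 genes (0%) by either tool, with 622 (5.2%) at an unadjusted p under 0.05 by edgeR, 343 (2.87%) positive and 279 (2.33%) negative, and 865 by DESeq2. At week 0 Dnmt3a had a log2 fold change of 0.33 ± 0.75, Bcl11a 0.04 ± 0.57, Klf1 -0.09 ± 0.6, Nfkbie 0.66 ± 0.53 and Fpr1 -0.42 ± 0.61. The weeks also differed in sex-linked genes. At week 0 each MIR29B dose had 1 library high in Xist and 2 high in Eif2s3y and Ddx3y, where week 4 had 2 and 1. If the titles are right, the libraries of both weeks were thus not all from the same mice. The part of the sex-linked change in the difference between weeks was not tested.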

How the data were processed

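The authors deposited raw counts for 25856 RefSeq transcripts in 36 libraries, and per the labels' protocols RNA was extracted with TRIzol and depleted of globin mRNA. Per the submitters' processing notes HISAT2 2.0.5, featureCounts 1.5.0-p3 and GRCm38 were used, with no roles stated. The strand setting, the handling of read mates and the treatment of reads shared by isoforms or copies are not given in the sources used here. All deposited counts were even.

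Symbols came from a RefSeq table for GRCm38.p6 (25650 transcripts) or GENCODE (132). The 74 without a symbol, 2.03% to 4.43% of the counts of the 6 libraries, stayed in the totals and are not named. The transcript with the highest total stood for its gene, giving 16812 genes, and the filter of edgeR (filterByExpr, with the group given, at least 10 counts and 15 in total) kept 11953. edgeR 4.0.16 in R 4.3.3 was fitted to all 36 libraries in 12 groups with TMM scaling and no block, with a common dispersion of 0.25, and genes were called at an adjusted p under 0.05. Standard errors were derived from the fold change and its F statistic. The fit was also run on simulated data, with changes set only in genes of high mean count. That run does not show what could be detected in genes with few counts. DESeq2 1.42.0 was an alternative, and the others were scaling, filter, libraries fitted, replicate block, summed transcripts, the length index and leaving out each library.

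Members and lists were chosen with earlier results of these data known. Named genes are the 10 of smallest p on each side (predicted genes without an established symbol left out), up to 3 of smallest p in each list, and 14 regulators and immune genes. Coordinates are those of RefSeq on GRCm38.p6. One target gene is not reported here.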

Additional observations from a re-analysis of the deposited data

How the results depend on the processing

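Counts of called genes stayed at 0 in the 5 comparisons with DESeq2 size factors, with DESeq2, with summed transcripts, with the length index as a term, and when each library of the groups compared was left out in turn (0 to 0). Without the filter on low counts, 2 genes were called between 3 and 2 mg/kg MIR29B at week 4, 4 in the scrambled arm, 5 for the difference between arms, 7 at week 0 and 1 for the difference between weeks. The 2 were BC018473 (8.11, adjusted p = 0.00261), whose 124 counts all lay in 3 mg/kg replicate 3 against 0 at 2 mg/kg, and the acute phase gene Saa3 (-2.92, adjusted p = 0.000354). A fit to the 6 libraries alone called 1 gene, Saa3 (-2.88, adjusted p = 0.0313), with 1.9, 1.72 and 1.55 CPM at 3 mg/kg, against 8.47, 9.59 and 21.9 CPM at 2 mg/kg. In the scrambled arm, which that fit leaves out, Saa3 spread widely, with 17, 26.9 and 9 CPM at 3 mg/kg and 67.7, 17.2 and 0.457 CPM at 2 mg/kg. The cause of its difference was not tested.

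The replicate block called 0 genes in each of the 5 comparisons. Deviations of same-numbered libraries of the 2 doses correlated at 0.08, -0.06 and -0.01 for MIR29B at week 4, 0.06, 0.1 and 0.07 for scrambled and 0.46, 0.37 and 0.03 for MIR29B at week 0; not every value was over 0.1 in any of them, so the numbers are not taken to pair the libraries. Among the 124 named genes the block turned the sign of Eif2s3y (-3.5), and the length index those of Dnmt1 (0.24) and Zbtb7a (0.22). Leaving out 1 library turned the sign of Eif2s3y (-11.32 to 4.21), Ddx3y (-10.22 to 2.96), Dnmt3b (-0.1 to 1.02), Dnmt1 (-0.21 to 0.23) and Zbtb7a (-0.68 to 0.06). In the fit to the groups compared alone, which tested fewer of the named genes, 105 kept their sign and 1, Dnmt1, turned (0.03).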

Other observations

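In further gene groups edgeR called 0 genes between the doses. Heat shock chaperones had a median log2 fold change of 0.35 over 17 tested, with 13 higher and 4 lower at 3 mg/kg, 0.28 with the length index as a term, and -0.63 in the scrambled arm. The median of the difference between arms was 0.95. Hspa8, the constitutive HSP70 chaperone, stood at 2490, 803 and 3720 CPM at 3 mg/kg, against 987, 1960 and 707 CPM at 2 mg/kg, so the groups overlapped. Its log2 fold change was 0.94 ± 0.56, against -1.51 ± 0.57 in the scrambled arm. The difference between arms was 2.45 ± 0.8 (unadjusted p = 0.00414). Interferon-stimulated genes had a median of -0.1, with 26 of 47 lower, and 0.01 with the length index as a term. Among them Isg15, a ubiquitin-like modifier, averaged 5390 ± 1670 CPM at 3 mg/kg and 2850 ± 565 CPM at 2 mg/kg, while Oasl1 averaged 0.693 ± 0.489 CPM at 3 mg/kg and 1.96 ± 0.861 CPM at 2 mg/kg, and Parp14 4.82 ± 1.96 CPM at 3 mg/kg and 9.93 ± 2.62 CPM at 2 mg/kg. Genes of the unfolded protein response had a median of 0.23, with 18 of 27 higher, and 0.11 with the length index as a term. Oxidative stress genes had a median of 0.11, with 18 of 25 higher, and -0.16 with that term. Immediate early genes had a median of -0.18, with 21 of 30 lower, and -0.12 with the term. Medians were 0.02 for cell cycle genes (23 of 45 higher), 0.07 for the BCL2 family (10 of 16 higher) and -0.06 for cholesterol genes (12 of 29 higher). Over all genes tested the median was -0.04.

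In glucose metabolism the list had a median of -0.07, with 12 of 22 lower, and -0.11 with the length index as a term. Pfkfb3, which makes the activator of phosphofructokinase, stood at 2.68, 2.65 and 3.26 CPM at 3 mg/kg, against 16, 6.11 and 5.39 CPM at 2 mg/kg, and its log2 fold change of -1.68 ± 0.61 was -1 without 2 mg/kg replicate 1. Slc2a9, a urate and hexose transporter, stood at 1.2, 1.72 and 0.859 CPM at 3 mg/kg, against 0.0777, 0.376 and 0.449 CPM at 2 mg/kg, a log2 fold change of 2.05 ± 0.75. Neither gene passed the test. Nfe2l2, the regulator of the antioxidant response, stood at 5.71, 5.7 and 8.33 CPM at 3 mg/kg, against 16.1, 9.12 and 9.88 CPM at 2 mg/kg. Its log2 fold change was -0.83 ± 0.41, or -0.53 without 2 mg/kg replicate 1.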
